A study of Mus musculus with 18 samples.

Results

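Transcription of 10 genes of the integrated stress response, *Atf4*, *Atf5*, *Ddit3*, *Trib3*, *Sesn2*, *Chac1*, *Asns*, *Psat1*, *Phgdh* and *Slc7a11*, was followed in nascent RNA of WT and *Tet2*-KO mouse embryonic stem (mES) cells. The genes were taken by symbol, and the Ensembl identifier of each row of the count files was matched to GENCODE M21. Of 54446 gene rows, 11 carried a member symbol, because *Ddit3* names 2 overlapping genes in that annotation. The shorter of them had 0 reads in all 18 libraries, so the 10 rows that remained were used. WT and *Tet2*-/- mES cells, each a single line, were passaged on gelatin to clear feeder cells, kept in medium with LIF, CHIR99021 and PD0325901, given 1 mM 5-ethynyl uridine (EU), which is built into new RNA, and harvested 10, 20 or 40 min later. Labelled RNA was biotinylated, captured on streptavidin beads, mixed with ERCC spike-in RNA in proportion to total RNA and sequenced with a stranded kit. Each of the 6 combinations of genotype and EU time had 3 replicate dishes, so *p* values measure the spread between dishes of 1 line per genotype and not between knockout clones. Whether fewer of the cells transcribing a gene or less of its RNA per cell stood behind a lower level cannot be told apart in these bulk libraries.

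The integrated stress response is entered when 1 of several kinases, sensing unfolded protein, missing amino acids, double-stranded RNA or lack of haem, phosphorylates the translation factor eIF2α. General translation then slows, while the mRNA of the transcription factor ATF4 is translated better. ATF4 pairs with C/EBP proteins and other bZIP factors on composite C/EBP-ATF response elements and turns on genes for amino acid synthesis and uptake, tRNA charging and, under lasting stress, cell death. Much of the control of ATF4 itself lies in translation, which nascent RNA does not measure.

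Promoter sequences are shown for the members that hold the core letters of that composite element, because this is the sequence through which ATF4 is known to reach its targets. RefSeq windows on GRCm38.p6, the build also called mm10, from 250 bases before to 50 bases after each start, were found for all 10 members. The letters TGATGNAA, searched on both strands, occurred in 4 of the 10 members and in 1219 of 27025 genes with a window (4.51%). The palindromic cAMP response element TGACGTCA, also searched, occurred in 0 of the 10 members and in 549 of 27025 genes (2.03%). Each sequence below is printed 5′ to 3′ along the gene, with the matched letters in capitals. Distances are counted from the RefSeq starts, which differ from the starts in the GENCODE coordinates given with each member further below. By the GENCODE coordinates the match of *Trib3* lies before the start of the gene and that of *Asns* inside the gene.
*Chac1*, chr2:119351023-119351082, + strand, 193 bases before the start: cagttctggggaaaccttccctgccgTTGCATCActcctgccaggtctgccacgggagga
*Trib3*, chr2:152344028-152344057, - strand, 15 bases past the start: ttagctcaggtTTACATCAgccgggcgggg
*Slc7a11*, chr3:50443627-50443705, - strand, 66 and 47 bases before the start: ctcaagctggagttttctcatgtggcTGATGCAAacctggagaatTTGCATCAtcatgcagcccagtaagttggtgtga
*Asns*, chr6:7693210-7693258, - strand, 23 bases before the start: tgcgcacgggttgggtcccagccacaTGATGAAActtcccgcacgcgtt
The copies in *Chac1* and *Trib3* lay on the opposite strand to the gene, that in *Asns* lay on the strand of the gene, and *Slc7a11* held 1 on each strand. A match is a description of these letters, and the windows of the other 6 members lack only these letters in this stretch.

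Between 17931614 and 23069143 reads per library fell on genes, between 44162 and 512186 on ERCC transcripts and between 10136 and 15518 on the 10 members together. Members were read on 2 scales: reads per 1000 ERCC reads, which keeps the total of nascent RNA per input RNA, and TMM-scaled counts per 1000000 gene reads (CPM below), which gives the share of a gene among all transcribed genes. Fits for all tests were made with edgeR's quasi-likelihood model over 19910 genes, and a gene was called at an adjusted *p* under 0.05. The median log2 fold change of *Tet2*-KO over WT, averaged over the 3 EU times, was 0.70 over all tested genes per ERCC read and 0.00 as a share of gene reads, so the 2 scales differ by a shift common to most genes. Reads on *Tet2* were not lost in libraries labelled *Tet2*-KO, but each lay below every WT library of the same EU time. *Tet2*-KO libraries had 530.2 to 545 CPM against 563 to 576 in WT at 10 min. At 20 min they had 583 to 596 against 662 to 690, and at 40 min 658 to 666 against 756 to 759. A deleted exon would not be seen in a whole-gene total. The mES cell markers summed to 2045 to 2314 CPM in WT and 1494 to 1662 in *Tet2*-KO, but the list did not fall as a whole. Of its 7 tested genes 5 were lower in share. *Zfp42* had 104 to 126 CPM against 498 to 553 in WT. On the log2 scale *Tdgf1* was lower by -0.74 ± 0.02, *Klf4* by -0.60 ± 0.02, *Dppa5a* by -0.22 ± 0.04 and *Nanog* by only -0.08 ± 0.02. *Pou5f1* was higher by 0.20 ± 0.03 (adjusted *p* = 6.35e-07) and *Esrrb* was not called (-0.02 ± 0.01, adjusted *p* = 0.169). *Sox2*, which lies inside another gene on its strand, was at 0 reads in every library. The 7 feeder fibroblast markers, of which *Lum* was at 0 in WT, summed to 20.2 to 21.7 CPM in WT at 10 min but only 6.36 to 7.85 at 20 and 40 min, and to 7.17 to 8.76, 12.3 to 13.6 and 6.45 to 8.03 CPM in *Tet2*-KO at 10, 20 and 40 min. The feeder markers did not move together: averaged over the EU times, *Pdgfrb* was lower in share in *Tet2*-KO (-1.53 ± 0.11 on the log2 scale). *Col1a1* (0.44 ± 0.11) and *Col3a1* (1.09 ± 0.29) were higher, *Col1a2* and *Postn* were not called, and *Lum* and *Dcn* were not tested. The part of feeder RNA in differences at 10 min was not tested. The 5 primitive endoderm markers summed to 14.5 to 20.6 CPM in WT and 14.5 to 18.8 in *Tet2*-KO. They did not move together either. On the log2 scale *Gata4* was lower in share on average (-0.38 ± 0.10) and *Dab2* higher (0.20 ± 0.08). *Gata6* and *Pdgfra* were not called, and *Sox17* was not tested.

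Levels of nascent RNA per kilobase of gene spanned a wide range among the members. In WT at 20 min, *Atf4* led with 37.1 ± 1.09 CPM per kilobase (SD, n = 3), followed by *Asns* with 21.8 ± 0.419, which placed them at the 99.2 and 98.6 percentiles of all tested genes on that scale. *Sesn2* had 2.32 ± 0.118 and *Ddit3* 1.37 ± 0.164 CPM per kilobase. *Psat1* (1.06 ± 0.0534), *Trib3* (1.03 ± 0.0443) and *Atf5* (1.01 ± 0.0922) came next, and per kilobase of gene they did not differ beyond their spread. *Phgdh* had 0.709 ± 0.0443, *Chac1* 0.310 ± 0.0377 and *Slc7a11* 0.00390 ± 0.000365 CPM per kilobase. Division by the whole gene was used because reads appeared to be counted over introns and exons alike and by strand: of 452 protein-coding genes lying inside another gene on the same strand, 451 were at 0 reads in all libraries, against 11.3% of 811 that lie inside a gene on the opposite strand only. By the same token *Ddit3* has only 2590 of its 5515 bases, and *Sesn2* 12381 of 18470, outside other genes on their strand, so dividing by the whole span lowers their level per kilobase. Per kilobase of exon the order of the leading members turned, with 144 ± 2.77 CPM for *Asns* and 37.1 ± 1.09 for *Atf4* (99.4 and 94.3 percentiles). On that scale *Psat1* (10.6 ± 0.536), *Trib3* (3.19 ± 0.138) and *Atf5* (2.23 ± 0.204) were apart. *Phgdh* (7.65 ± 0.478) then lay above *Ddit3* (4.41 ± 0.530). The annotated span of *Slc7a11*, 551089 bases, makes its level per kilobase depend on that annotation.

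As a share of gene reads, the members did not move together in *Tet2*-KO. Averaged over the EU times, 4 of 10 were higher (*Atf5*, *Psat1*, *Phgdh* and *Asns*), where 28.6% of all tested genes were higher, 1 was lower (*Atf4*), where 27.9% were lower, and the other 5 were not called. The members' median log2 fold change was 0.07, beside 0.00 over all tested genes. The called differences were small, from 1.03-fold for *Asns* to 1.36-fold for *Atf5*. The plot of shares by library gives every value, and the members follow below by their roles.

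**Figure D1:**
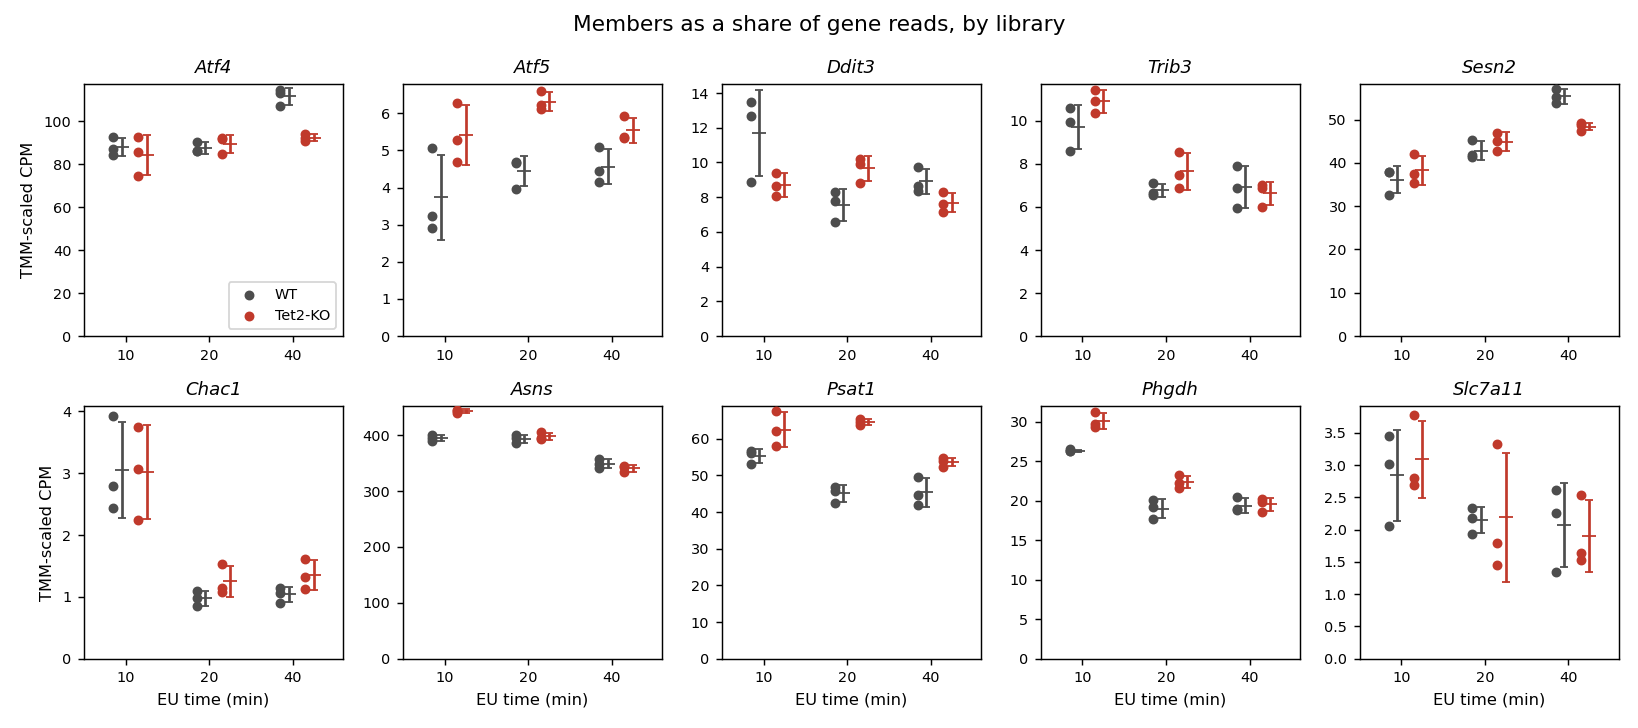
Level of each member as TMM-scaled CPM (vertical axis, from 0) against EU time in min (horizontal axis) in WT (grey) and *Tet2*-KO (red). Points are the 3 libraries of a group, and the bar beside them is the mean ± SD. *Psat1* lies higher in *Tet2*-KO at each EU time, *Atf4*, *Sesn2* and *Ddit3* lie lower at 40 min, and *Chac1* falls from 10 to 20 min in both genotypes.

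*Atf4* (ENSMUSG00000042406, chr15:80255184-80257541 on mm10), the central transcription factor, was transcribed at a similar share of gene reads in both genotypes until 40 min. WT libraries had 92.7, 86.8 and 84.2 CPM at 10 min, 90.5, 86.1 and 85.9 at 20 min and 115, 107 and 113 at 40 min. *Tet2*-KO libraries had 92.6, 74.4 and 85.5 CPM at 10 min, 84.8, 91.7 and 92.1 at 20 min and 90.6, 92.1 and 93.9 at 40 min. The genotypes overlapped at 10 and 20 min, and at 40 min every *Tet2*-KO library lay below every WT library. The log2 fold change was -0.06 ± 0.05 (SE, adjusted *p* = 0.394) at 10 min, 0.03 ± 0.05 (adjusted *p* = 0.675) at 20 min and -0.27 ± 0.05 (adjusted *p* = 7.11e-05) at 40 min. Averaged over the times, *Atf4* was lower by -0.10 ± 0.03 on the log2 scale (adjusted *p* = 0.00613). Without *Tet2*-KO replicate 1 at 10 min, which had the highest value of its group, *Atf4* was also called lower at 10 min (adjusted *p* = 0.0439).

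*Atf5* (ENSMUSG00000038539, chr7:44812256-44816658), a bZIP factor related to ATF4 whose mRNA is likewise translated better under stress, had the largest average increase of the 10 members, although *Psat1* at 20 min and *Chac1*, which was not called, at 40 min had larger values. WT libraries had 2.92, 5.05 and 3.23 CPM at 10 min, 3.97, 4.67 and 4.68 at 20 min and 4.44, 5.08 and 4.16 at 40 min. *Tet2*-KO libraries had 6.28, 5.27 and 4.70, then 6.12, 6.60 and 6.22, then 5.92, 5.33 and 5.37 CPM at these times. All *Tet2*-KO libraries lay above all WT libraries at 20 and 40 min, and only WT replicate 2 reached into their range at 10 min. The log2 fold change was 0.44 ± 0.10 on average (adjusted *p* = 0.000343), 0.54 ± 0.18 at 10 min (adjusted *p* = 0.0126), 0.51 ± 0.17 at 20 min (adjusted *p* = 0.0196) and 0.28 ± 0.18 at 40 min (adjusted *p* = 0.224). With 68 to 141 reads per library the values at single times were unsteady: the call at 10 min was lost without WT replicate 1 (adjusted *p* = 0.0993), WT replicate 3 (0.0678) or *Tet2*-KO replicate 1 (0.0900) of that time, and with the libraries of 10 min fitted alone (0.0778), and the call at 20 min without WT replicate 1 (0.0855) or *Tet2*-KO replicate 2 (0.0625). The average was called with each library left out. *Il4i1*, which overlaps *Atf5* on the opposite strand, had 172 to 313 reads, and reads assigned to the wrong strand were not measured.

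*Ddit3* (ENSMUSG00000025408, chr10:127290774-127296288) encodes CHOP, the factor associated with cell death under lasting stress. Only 2590 of its 5515 bases lie outside other genes on its strand, so its values appear to rest on part of the gene. WT libraries had 13.5, 8.90 and 12.7 CPM at 10 min, 6.55, 7.79 and 8.32 at 20 min and 9.72, 8.65 and 8.36 at 40 min. *Tet2*-KO libraries had 8.06, 8.63 and 9.40, then 8.81, 9.92 and 10.2, then 7.62, 8.30 and 7.16 CPM. *Ddit3* was thus lower in *Tet2*-KO at 10 min (-0.43 ± 0.14 on the log2 scale, adjusted *p* = 0.00973), with WT replicate 2 inside the *Tet2*-KO range, and higher at 20 min (0.35 ± 0.14, adjusted *p* = 0.0471) without overlap. At 40 min every *Tet2*-KO library lay below every WT library, but the difference was not called (-0.21 ± 0.14, adjusted *p* = 0.262), nor was the average (-0.10 ± 0.08, adjusted *p* = 0.319). The lower level at 10 min was not called without WT replicate 1 (adjusted *p* = 0.0688). The call at 20 min was lost with any of 11 of the 18 libraries left out, with adjusted *p* up to 0.207 without WT replicate 1 of that time, and under DESeq2 (0.0580), with gene totals without TMM (0.0806) and either other filter on low counts (0.0901 and 0.0535). *Mars*, which overlaps *Ddit3* on the opposite strand, had 1104 to 1693 reads per library against 124 to 315 for *Ddit3*. Reads assigned to the wrong strand were not measured here either.

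For *Trib3*, *Sesn2* and *Chac1* the average difference in share was not called. *Trib3* (ENSMUSG00000032715, chr2:152337422-152344032), a pseudokinase that restrains ATF4 and AKT, had 5.96 to 10.6 CPM in WT and 6.01 to 11.5 in *Tet2*-KO, and its log2 fold change was 0.09 ± 0.08 (adjusted *p* = 0.314). *Sesn2* (ENSMUSG00000028893, chr4:132492032-132510501), a leucine sensor that restrains mTORC1, had 37.9, 38.0 and 32.6 CPM in WT libraries at 10 min, 45.3, 41.7 and 41.3 at 20 min and 55.2, 57.1 and 53.8 at 40 min. In *Tet2*-KO it had 35.4, 37.4 and 42.0, then 42.8, 45.0 and 47.0, then 48.7, 47.4 and 49.1 CPM. Like *Atf4*, it overlapped between genotypes at 10 and 20 min and was lower in every *Tet2*-KO library at 40 min, by -0.19 ± 0.06 on the log2 scale (adjusted *p* = 0.0154). That call was lost without replicate 2 of WT (adjusted *p* = 0.0673) or of *Tet2*-KO (0.0679) at 40 min, and the average was -0.01 ± 0.04 (adjusted *p* = 0.774).

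*Chac1* (ENSMUSG00000027313, chr2:119351229-119354381), which degrades glutathione and is among the ATF4 targets most readily induced, was sparse here, with 18 to 91 reads per library. WT libraries had 2.44, 3.93 and 2.79 CPM at 10 min, 1.09, 0.986 and 0.855 at 20 min and 1.07, 0.905 and 1.15 at 40 min. *Tet2*-KO libraries had 3.07, 2.24 and 3.75, then 1.53, 1.14 and 1.08, then 1.32, 1.13 and 1.62 CPM. The genotypes overlapped at each time, and the average log2 fold change was 0.24 ± 0.16 (adjusted *p* = 0.226).

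Of the amino acid genes, *Psat1* (ENSMUSG00000024640, chr19:15904678-15947337), the aminotransferase of serine synthesis, was the only member above WT in all libraries of each EU time. WT libraries had 56.1, 53.1 and 56.6 CPM at 10 min, 45.8, 46.9 and 42.5 at 20 min and 44.6, 41.9 and 49.5 at 40 min. *Tet2*-KO libraries had 58.0, 67.5 and 62.0, then 65.2, 63.7 and 64.6, then 53.9, 52.4 and 54.6 CPM. The share rose in *Tet2*-KO by 0.31 ± 0.03 on the log2 scale on average (adjusted *p* = 1.41e-09), by 0.17 ± 0.06 at 10 min (adjusted *p* = 0.0142), 0.52 ± 0.06 at 20 min (adjusted *p* = 8.21e-09) and 0.24 ± 0.06 at 40 min (adjusted *p* = 0.00154). The call at 10 min was lost without replicate 2 of WT (adjusted *p* = 0.0989) or of *Tet2*-KO (0.134), without TMM (0.139) and with that time alone (0.0515).

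*Phgdh* (ENSMUSG00000053398, chr3:98313170-98339990), the dehydrogenase that opens the same pathway, was higher by less. WT libraries had 26.3, 26.5 and 26.3 CPM at 10 min, 19.2, 17.8 and 20.1 at 20 min and 18.8, 20.5 and 18.9 at 40 min, and *Tet2*-KO libraries had 29.7, 29.4 and 31.3, then 21.7, 22.3 and 23.3, then 19.8, 18.6 and 20.2 CPM. The genotypes were apart at 10 and 20 min and overlapped at 40 min. The log2 fold change was 0.15 ± 0.04 on average (adjusted *p* = 0.00454), 0.19 ± 0.07 at 10 min (adjusted *p* = 0.0272), 0.23 ± 0.08 at 20 min (adjusted *p* = 0.0138) and 0.01 ± 0.08 at 40 min (adjusted *p* = 0.936). The call at 10 min was lost without any 1 of the 3 WT libraries of that time or without *Tet2*-KO replicate 3 (adjusted *p* = 0.0622 to 0.102), without TMM (0.167), without a filter (0.103) and with that time alone (0.0994), and the call at 20 min without WT replicate 2 (0.0834), without *Tet2*-KO replicate 3 (0.0645) and without a filter (0.0774). A pseudogene, *Phgdh-ps1*, shares its sequence, so its reads are less certain.

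*Asns* (ENSMUSG00000029752, chr6:7675169-7693254), asparagine synthetase, held the most reads of the 10 members, with 5969 to 9962 per library. WT libraries had 395, 390.1 and 399.6 CPM at 10 min, 386, 394 and 401 at 20 min and 349, 341 and 358 at 40 min. *Tet2*-KO libraries had 443, 440.3 and 446, then 393, 406 and 395, then 334, 343 and 345 CPM. *Tet2*-KO was above WT at 10 min and overlapped it later. The log2 fold change was 0.17 ± 0.02 at 10 min (adjusted *p* = 5.44e-07), 0.02 ± 0.02 at 20 min (adjusted *p* = 0.667) and -0.04 ± 0.02 at 40 min (adjusted *p* = 0.262). The average of 0.05 ± 0.01 (adjusted *p* = 0.00334) was not called without TMM (0.01, adjusted *p* = 0.618) or without a filter on low counts (0.03, adjusted *p* = 0.173).

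*Slc7a11* (ENSMUSG00000027737, chr3:49892526-50443614), the cystine transporter that feeds glutathione synthesis, had 27 to 85 reads per library. Its level was 1.35 to 3.45 CPM in WT and 1.45 to 3.78 in *Tet2*-KO, and the genotypes overlapped at each time. The average log2 fold change was 0.01 ± 0.17 (adjusted *p* = 0.978).

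By EU time, the share of gene reads was higher in *Tet2*-KO for 4 members at 10 min (22.5% of all tested genes were higher) and lower for 1 (21.4% were lower), higher for 4 and lower for 0 at 20 min (20.3% and 18.2%), and higher for 1 and lower for 2 at 40 min (19.7% and 18.6%). At an unadjusted *p* under 0.05 the members lower at 20 min were also 0 in number, and DESeq2 called 0 lower. All 3 *Tet2*-KO libraries lay above all 3 WT libraries for 3 members at 10 min (23.2% of all tested genes), 4 at 20 min (25.9%) and 2 at 40 min (26.6%), and below them for 0, 0 and 3 members (22.0%, 23.8% and 25.7%). The counts above WT lie near the shares of all genes, and at 10 and 20 min no member lay below WT.

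Per ERCC read, all 10 members were higher in *Tet2*-KO on average, where 80.5% of all tested genes were higher. The log2 fold change ran from 0.59 ± 0.05 for *Atf4* (1.51-fold, adjusted *p* = 3.04e-24) to 1.13 ± 0.11 for *Atf5* (2.19-fold, adjusted *p* = 1.77e-21), with *Psat1* next at 1.01 ± 0.06 (2.01-fold, adjusted *p* = 1.21e-50). *Chac1* had 0.93 ± 0.19, *Phgdh* 0.84 ± 0.07, *Trib3* 0.79 ± 0.09, *Asns* 0.74 ± 0.05, *Slc7a11* 0.69 ± 0.16, *Sesn2* 0.68 ± 0.06 and *Ddit3* 0.60 ± 0.09 on the log2 scale. The median of the members was 0.77, beside 0.70 over all tested genes, so members and background lay at a like distance from 0. All 10 were higher at 10 min (79.0% of all tested genes), 9 at 20 min (53.7%) and 9 at 40 min (68.2%), the exception being *Slc7a11* at 20 min (0.46 ± 0.28, adjusted *p* = 0.143) and 40 min (0.53 ± 0.28, adjusted *p* = 0.0853). *Slc7a11* was called at 40 min without WT replicate 1 of that time (adjusted *p* = 0.0407) and with the libraries of 40 min alone (0.0475). *Chac1* at 20 min (0.80 ± 0.35, adjusted *p* = 0.0402) was not called without any 1 of the 3 WT libraries or *Tet2*-KO replicates 1 or 2 of that time (adjusted *p* = 0.0537 to 0.135), with the median of ERCC ratios (0.0572), under DESeq2 (0.0534) or without a filter (0.0651).

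**Figure D2:**
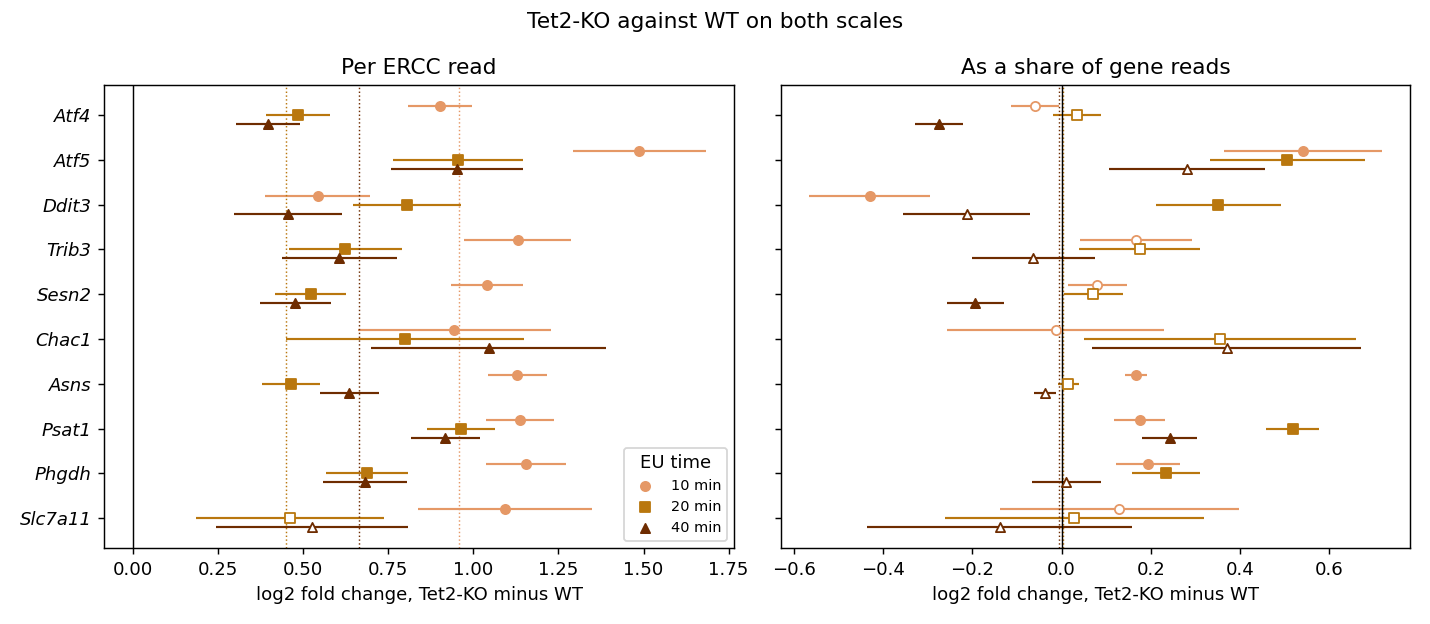
Log2 fold change of *Tet2*-KO minus WT (horizontal axis) for each member at 10, 20 and 40 min of EU, per ERCC read on the left and as a share of gene reads on the right. Bars are 1 SE of the edgeR fit, filled markers have an adjusted *p* under 0.05, and dotted lines in the same colours mark the median over all tested genes. All points lie right of 0 on the left. On the right the points of *Psat1*, *Atf5* and *Phgdh* lie right of 0 at each time, that of *Phgdh* at only 0.01 at 40 min. At 40 min *Atf4*, *Sesn2*, *Ddit3*, *Slc7a11*, *Trib3* and *Asns* lie left of 0, and of these only *Atf4* and *Sesn2* are filled.

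Levels per 1000 ERCC reads grew with EU time. In WT, *Atf4* went from 4.29 ± 0.454 (SD, n = 3) at 10 min through 13.2 ± 0.669 at 20 min to 26.8 ± 0.521 at 40 min, and from 8.01 ± 1.23 to 18.5 ± 1.90 and 35.3 ± 2.50 in *Tet2*-KO. *Asns* went from 19.2 ± 1.37 to 59.5 ± 3.19 and 83.9 ± 1.54 in WT and from 42.1 ± 2.81 to 82.0 ± 5.90 and 130.4 ± 8.64 in *Tet2*-KO. *Chac1* stood apart: in WT its level was 0.151 ± 0.0496, 0.148 ± 0.0207 and 0.249 ± 0.0200 at the 3 times, and in *Tet2*-KO 0.290 ± 0.0882, 0.256 ± 0.0344 and 0.520 ± 0.112. For 9 of 10 members at 10 min (75.6% of all tested genes), 9 at 20 min (57.2%) and 9 at 40 min (71.7%), all *Tet2*-KO libraries lay above all WT libraries. The member that overlapped was *Chac1* at 10 min and *Slc7a11* at 20 and 40 min.

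**Figure D3:**
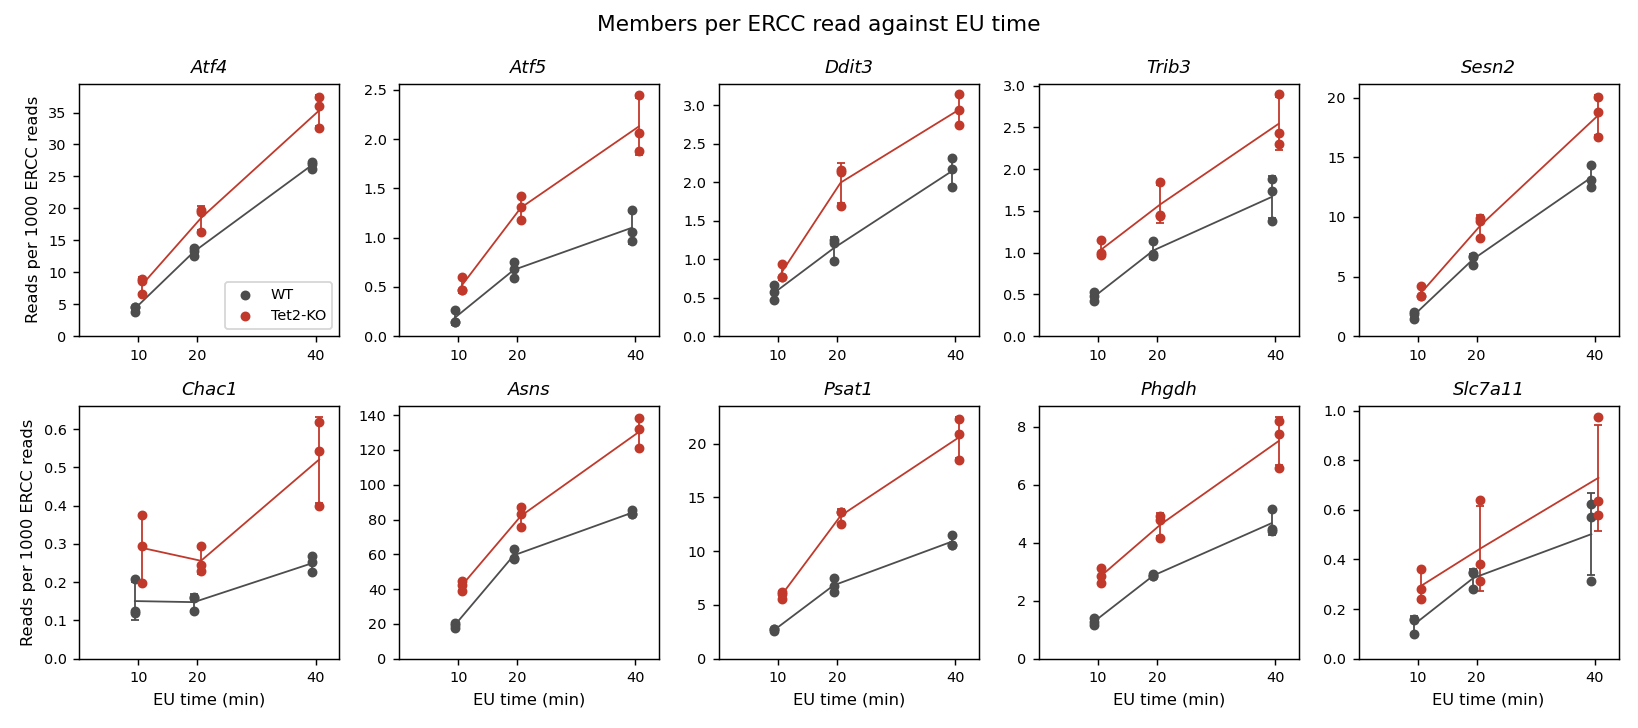
Reads of each member per 1000 ERCC reads (vertical axis, from 0) against EU time in min (horizontal axis, drawn to scale) in WT (grey) and *Tet2*-KO (red). Points are libraries, lines join the means of 3 libraries and bars are the SD. The *Tet2*-KO means lie above the WT means in every panel, and the line of *Chac1* is flat from 10 to 20 min.

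The synthesis rate was taken as the slope of the level per 1000 ERCC reads on EU time, by least squares with an intercept over the 9 libraries of a genotype. *Atf4* gained 0.740 ± 0.0242 reads per 1000 ERCC reads each min in WT (SE of the slope, n = 9) and 0.901 ± 0.0519 in *Tet2*-KO, a ratio of 1.22, the lowest of the 10. *Psat1* gained 0.263 ± 0.0232 and 0.470 ± 0.0454 (ratio 1.79), and *Atf5* 0.0292 ± 0.00377 and 0.0520 ± 0.00579 (ratio 1.78). The ratio was 2.39 for *Chac1*, with the least certain slopes (0.00355 ± 0.000961 and 0.00848 ± 0.00261), and moved to 12.3 from 10 and 20 min alone and to 1.79 to 2.87 with a library left out. It was between 1.24 and 1.42 for *Slc7a11*, *Ddit3*, *Trib3*, *Sesn2*, *Phgdh* and *Asns*. Over 15075 protein-coding genes with a positive slope in both genotypes the median ratio was 1.54, with quartiles at 1.29 and 1.86. In this fit *Chac1*, *Psat1* and *Atf5* were above that median and the other 7 members below it. Their placing depended on the fit. From 20 and 40 min alone the ratio was 1.98 for *Asns*, 1.61 for *Slc7a11* and 1.60 for *Phgdh*. From 10 and 20 min alone it was 2.03 for *Ddit3*. The median over all genes was not taken for these other fits. These ratios have no test.

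Per ERCC read, the log2 fold change of *Tet2*-KO over WT was lower at 40 than at 10 min for 4 of 10 members, where 19.3% of all tested genes were lower. It was higher for 0 members, also at an unadjusted *p* under 0.05 and under DESeq2, where 0.552% were higher. The log2 fold change at 40 min minus that at 10 min was -0.50 ± 0.13 for *Atf4* (adjusted *p* = 0.00367), -0.56 ± 0.15 for *Sesn2* (adjusted *p* = 0.00336), -0.49 ± 0.12 for *Asns* (adjusted *p* = 0.00183) and -0.47 ± 0.17 for *Phgdh* (adjusted *p* = 0.0326). Over all tested genes the median was -0.29. The call of *Phgdh* was lost without any 1 of 7 libraries (adjusted *p* up to 0.148 without *Tet2*-KO replicate 2 at 40 min), with the median of ERCC ratios (0.0582) and without a filter (0.0582). *Atf5* without WT replicate 2 at 10 min (adjusted *p* = 0.00972), and *Trib3* without that library (0.0380), without WT replicate 3 (0.0498) or without *Tet2*-KO replicate 1 (0.0460) at 40 min, were called in addition. As a share of gene reads, only *Asns* changed its difference, by -0.20 ± 0.03 (adjusted *p* = 9e-05), 1 of 10 members where 6.12% of all tested genes were lower and 3.89% higher. *Atf4* (-0.22 ± 0.08, adjusted *p* = 0.0661) and *Sesn2* (-0.27 ± 0.09, adjusted *p* = 0.0548) fell short of the threshold. *Atf4* passed it without WT replicate 1 (adjusted *p* = 0.0423) or *Tet2*-KO replicate 2 (0.00372) at 10 min, and *Sesn2* without WT replicate 1 (0.0479), WT replicate 2 (0.0436) or *Tet2*-KO replicate 1 (0.0192) at 10 min, and both did under DESeq2 (0.0399 and 0.0311) and without a filter (0.00643 and 0.0232).

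Within a genotype, the share of gene reads changed with EU time for most members. In WT 6 of 10 were lower at 40 than at 10 min, where 22.0% of all tested genes were lower, and 2 were higher, where 22.8% were higher. *Chac1* fell most, by -1.55 ± 0.27 on the log2 scale (adjusted *p* = 1.63e-05), followed by *Trib3* (-0.49 ± 0.13, adjusted *p* = 0.00242), *Phgdh* (-0.44 ± 0.07, adjusted *p* = 7.48e-06), *Ddit3* (-0.39 ± 0.13, adjusted *p* = 0.0174), *Psat1* (-0.29 ± 0.06, adjusted *p* = 0.000163) and *Asns* (-0.18 ± 0.02, adjusted *p* = 2.42e-07). *Sesn2* rose by 0.61 ± 0.06 (adjusted *p* = 1.16e-09) and *Atf4* by 0.34 ± 0.05 (adjusted *p* = 1.64e-06). The call of *Ddit3* was lost without WT replicate 1 (adjusted *p* = 0.0933) or 3 (0.0505) at 10 min or WT replicate 3 at 40 min (0.0764), and *Atf5* (0.29 ± 0.18, adjusted *p* = 0.199) was called higher without WT replicate 2 at 10 min (0.0145).

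In *Tet2*-KO 5 of 10 members were lower at 40 than at 10 min, where 16.8% of all tested genes were lower, and 1 was higher, where 20.1% were higher. *Chac1* (-1.16 ± 0.27, adjusted *p* = 0.000799), *Trib3* (-0.72 ± 0.13, adjusted *p* = 4.67e-05), *Phgdh* (-0.63 ± 0.07, adjusted *p* = 2.8e-08), *Asns* (-0.38 ± 0.02, adjusted *p* = 1.56e-14) and *Psat1* (-0.22 ± 0.06, adjusted *p* = 0.00362) fell, and *Sesn2* rose by 0.34 ± 0.07 (adjusted *p* = 9.76e-05). *Atf4* had 0.13 ± 0.05 (adjusted *p* = 0.0621) and *Slc7a11* -0.71 ± 0.29 (adjusted *p* = 0.0503), each near the threshold. *Atf4* was called without *Tet2*-KO replicate 1 at 10 min (adjusted *p* = 0.00272), *Slc7a11* without any 1 of 8 libraries (adjusted *p* down to 0.0230), without TMM (0.0386) and with either other filter (0.0385 and 0.0375), and *Psat1* was not called without *Tet2*-KO replicate 2 at 10 min (0.0543). *Chac1*, *Trib3*, *Phgdh*, *Asns* and *Psat1* fell in each genotype with all libraries in the fit. The feeder fibroblast markers summed to 20.2 to 21.7 CPM at 10 min and 6.36 to 7.69 at 40 min in WT, and to 7.17 to 8.76 and 6.45 to 8.03 in *Tet2*-KO, and their part in these changes was not tested.

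**Figure D4:**
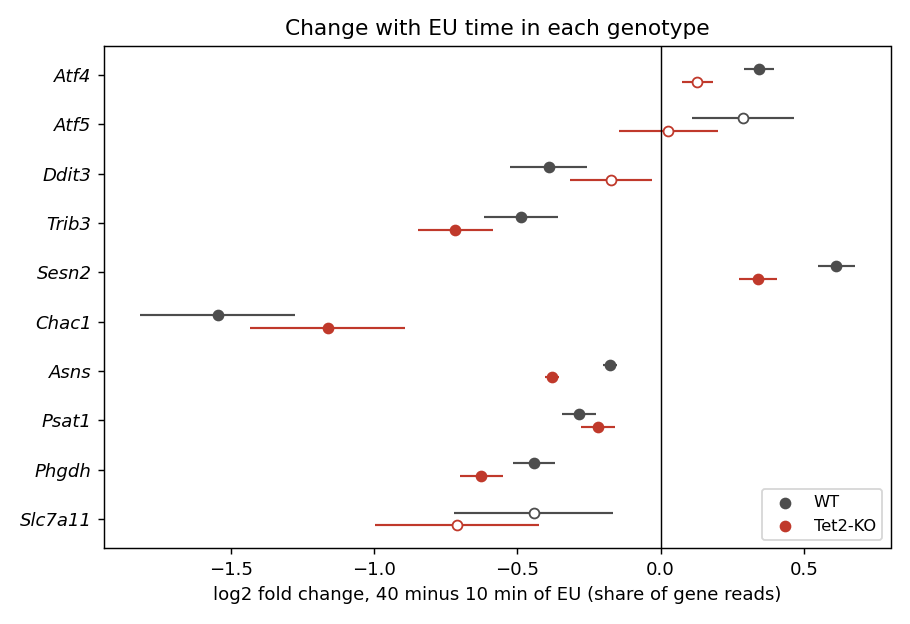
Log2 fold change of each member's share of gene reads from 10 to 40 min of EU (horizontal axis) in WT (grey) and *Tet2*-KO (red). Bars are 1 SE of the edgeR fit and filled markers have an adjusted *p* under 0.05. *Chac1* lies at -1.55 in WT and -1.16 in *Tet2*-KO, and *Sesn2* at 0.61 and 0.34.

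Other genes of the pathway and of neighbouring stress programmes, among them 10 of other arms of the unfolded protein response and 6 NRF2 targets, were read from lists of 78 genes, of which 77 were tested. As a share of gene reads, 25 were higher in *Tet2*-KO on average, 28 lower and 24 not called, with a median log2 fold change of 0.02. Per ERCC read 73 were higher, 1 was lower and 3 were not called, with a median of 0.71. These counts stand against 28.6% higher and 27.9% lower, and 80.5% higher and 4.15% lower, over all tested genes.

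Upstream of ATF4, 2 of 5 genes for eIF2α kinases and their activator were higher as a share of gene reads and 2 were lower. *Gcn1l1*, the activator of the amino acid sensor GCN2, had the highest value (0.20 ± 0.03, adjusted *p* = 8.6e-08) and *Eif2ak2*, which encodes PKR, the kinase of double-stranded RNA, the lowest (-0.32 ± 0.03, adjusted *p* = 4.57e-13). Of 8 subunits of eIF2 and of its exchange factor eIF2B, 3 were higher and 2 lower, from -0.17 ± 0.05 for *Eif2b4* (adjusted *p* = 0.00500) to 0.22 ± 0.02 for *Eif2b3* (adjusted *p* = 9.51e-10). Of the regulators of the eIF2α phosphatase, *Ppp1r15b* was lower (-0.09 ± 0.04, adjusted *p* = 0.0237) and *Ppp1r15a*, which encodes GADD34, was not called (-0.11 ± 0.07, adjusted *p* = 0.189).

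Among 5 bZIP partners, 2 were higher and 2 lower. *Batf3* had the lowest log2 fold change in share (-1.50 ± 0.36, adjusted *p* = 0.000636), and the highest value, 0.42 ± 0.29 for *Cebpb*, was not called (adjusted *p* = 0.229). Downstream, 4 of 10 other enzymes of amino acid and one-carbon metabolism were higher and 3 lower. Their values ran from -0.69 ± 0.04 for *Mthfd2* (adjusted *p* = 2.13e-15), a mitochondrial folate enzyme, to 0.38 ± 0.07 for *Cbs* (adjusted *p* = 2.45e-05), cystathionine β-synthase. Per ERCC read *Mthfd2* was at 0.00 ± 0.06 (adjusted *p* = 0.978). Of 8 other amino acid transporters 4 were higher and 1 was lower. *Slc1a4*, a transporter of neutral amino acids including serine, had 0.67 ± 0.05 (adjusted *p* = 2.82e-13) and *Slc38a2*, the glutamine transporter SNAT2, -0.40 ± 0.02 (adjusted *p* = 2.38e-16). Of 13 genes for aminoacyl-tRNA synthetases and the tRNA exporter, 3 were higher and 7 lower, with a median of -0.07, from -0.33 ± 0.03 for *Tars* (adjusted *p* = 4.67e-10) to 0.23 ± 0.03 for the exporter *Xpot* (adjusted *p* = 1e-08).

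For each member the genes of most similar pattern were found over the 6 group means of log2 CPM, each gene centred on its own mean, among 12052 genes with a mean above 2 on that scale, and the measure is the root mean square difference. The values rest on 6 points that share libraries and are a description. *Sesn2* was closest to *Dhx38* (0.0157) and *Mrps7* (0.0264), *Atf4* to *Ptpn1* (0.0254) and *Max* (0.0295), and *Asns* to *Sipa1l1* (0.0263) and *Psd4* (0.0318). *Slc7a11* was closest to *Srsf12* (0.0365) and *Ggta1* (0.0446), *Atf5* to *Fstl4* (0.0368) and *Ankrd46* (0.0444), and *Psat1* to *Map1a* (0.0468) and *Jdp2* (0.0502). *Glp1r* was among the nearest 2 of both *Phgdh* (0.0475, with *Ifitm1* at 0.0518) and *Trib3* (0.0497, after *Setd7* at 0.0489). *Ddit3* (*Ctsd*, 0.0671, and *Tmem128*, 0.0866) and *Chac1* (*Stc2*, 0.100, and *Bnip3*, 0.118) had the most distant nearest genes. *Stc2*, the nearest to *Chac1*, is itself on the list of stress-induced targets.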

How the data were processed

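Nascent RNA libraries of WT and *Tet2*-KO mES cells (3 per genotype and EU time) were read from the per-gene counts that the authors deposited without normalization. Per the labels and methods, reads were trimmed with Trimmomatic 0.39, aligned with HISAT2 2.2.1 to mm10, GENCODE M19 and ERCC sequences, and counted with HTSeq 0.12.4, whose feature type, strand and overlap settings are not given in the sources used here. Of 54446 gene rows, 54409 were found in GENCODE M21. Rows naming no gene took 20.9 to 24.9% of reads and were left out.

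Genes were kept by filterByExpr with a minimum count of 10. One edgeR 4.0.16 quasi-likelihood fit with 6 groups (R 4.3.3) was made per scale, with ERCC read totals or TMM-scaled gene totals as library size and Benjamini-Hochberg adjustment over all 19910 tested genes. SEs of log2 fold changes were obtained by dividing their size by the root of the *F* statistic. Replicates differed by more than counting noise, and SDs and intervals do not make reads without molecular identifiers independent molecules. Alternatives were DESeq2 1.42.0, the median of ERCC ratios, gene totals without TMM, other filters, a replicate block, single EU times and each library left out. Fits were tested on simulated data. All members were named, and of each other list the genes with the highest and lowest average log2 fold change. Members and lists were chosen with earlier results of these data known.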

Additional observations from a re-analysis of the deposited data

Results flagged for a closer look

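The difference between *Tet2*-KO and WT changed with EU time for 4 members per ERCC read and for 1 as a share of gene reads, by edgeR's test of the change itself, where 19.3% and 6.12% of all tested genes changed in that direction. Per ERCC read, the log2 fold change at 40 min was below that at 10 min by -0.50 for *Atf4*, -0.56 for *Sesn2*, -0.49 for *Asns* and -0.47 for *Phgdh*, beside a median of -0.29 over all tested genes. The call of *Phgdh* was lost with any 1 of 7 libraries left out (adjusted *p* up to 0.148), with the median of ERCC ratios (0.0582) and without a filter (0.0582). As a share of gene reads the change was -0.20 for *Asns*.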

How the results depend on the processing

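Counts of called members stayed within 1.5 times the reported count under the alternatives run, apart from 3 counts on the share of gene reads. Of 5 members called at 10 min, 3 were called without TMM, 2 with the libraries of that time alone and 2 to 5 with a library left out. Of 4 at 20 min, 2 were called without a filter and 2 to 4 with a library left out. For the change from 10 to 40 min, 1 member was called, 3 under DESeq2, 3 without a filter and 1 to 3 with a library left out. The average log2 fold change in share changed sign for *Slc7a11* (0.01), at -0.033 without TMM, -0.012 without a filter, -0.0023 with at least 10 counts in every library, -0.0027 with the replicate block and -0.13 to 0.082 with a library left out, and for *Sesn2* (-0.01), at -0.047 to 0.0066 with a library left out. Neither was called in any of these fits. The ratio of synthesis rates moved from 2.39 to 12.3 for *Chac1* from 10 and 20 min alone, and fell below 1 for *Ddit3* from 20 and 40 min alone (0.945), and from 10 and 20 min alone for *Trib3* (0.980), *Asns* (0.994) and *Slc7a11* (0.802, and 0.881 to 1.47 with a library left out). The ratio rose to 2.03 for *Ddit3* from 10 and 20 min alone. From 20 and 40 min alone it rose to 1.98 for *Asns*, 1.61 for *Slc7a11* and 1.60 for *Phgdh*. With a slope through the origin it was 1.64 for *Phgdh* and 1.56 for *Trib3*. The cause was not tested. Replicate numbers did not pair the libraries: same-numbered libraries of different groups had a median correlation of -0.0070 in 45 pairs, and 5 of 18 correlated best with their own number. With the replicate block, 5 members were called on average in share and 10 per ERCC read. In that fit *Ddit3* at 20 min was not called (adjusted *p* = 0.0502), and *Atf4* was called higher at 40 than at 10 min in *Tet2*-KO (adjusted *p* = 0.0474 in edgeR's test). Depth limits *Chac1* and *Slc7a11* most.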

Other observations

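Genes of neighbouring stress programmes in the same libraries went in both directions. As a share of gene reads, where 28.6% of all tested genes were higher and 27.9% lower, 2 of 10 genes of the other arms of the unfolded protein response were higher in *Tet2*-KO on average and 3 lower, with a median log2 fold change of 0.02. *Pdia4*, an oxidoreductase of the endoplasmic reticulum, had the highest value (0.60 ± 0.03, adjusted *p* = 2.62e-18 in edgeR's quasi-likelihood test) and *Creld2* the lowest (-0.17 ± 0.06, adjusted *p* = 0.0110). Of 6 targets of NRF2, the regulator of antioxidant genes, 2 were higher and 3 lower, from -0.28 ± 0.02 for *Txnrd1* (adjusted *p* = 1.03e-14), thioredoxin reductase, to 0.35 ± 0.03 for *Gclm* (adjusted *p* = 1.14e-12), a subunit of the glutathione-synthesizing ligase.

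Of 10 tested stress-induced targets outside the members, 3 were higher and 4 lower in share, with a median of -0.07. Over all tested genes 28.6% were higher and 27.9% lower. *Vegfa*, the angiogenic growth factor, stood out with 1.46 ± 0.06 (adjusted *p* = 5.3e-21), and 2.15 ± 0.07 per ERCC read, while *Vldlr* had -0.45 ± 0.16 (adjusted *p* = 0.0202). *Fgf21* had too few reads to be tested.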
